A study of Mus musculus with 6 samples.

Results

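The clustered histone genes are the 67 genes whose symbols begin with Hist1h, Hist2h, Hist3h or Hist4h, out of 32285 features counted in each of 6 single-cell libraries from mouse lung. They encode the linker histone H1 and the 4 core histones H2A, H2B, H3 and H4, and were taken by a rule on the symbol. The libraries hold cells enriched for CD45, the surface protein shared by blood-derived cells, from wild-type mice (named C65BL6 in the series' design text) or NOS1-/- mice, which lack neuronal nitric oxide synthase. Mice had received 10 mg/kg of LPS, a bacterial cell wall component that sets off inflammation, or vehicle into the peritoneum, and all lungs, controls included, were taken at 4 h. The 4 groups were wild-type vehicle (WT control, 1 library), NOS1-/- vehicle (KO control, 1 library), wild type with LPS (WT LPS, 2 libraries) and NOS1-/- with LPS (KO LPS, 2 libraries). The labels give no age, sex or number of animals per library, so the p-values below measure the spread between these libraries only. With 1 control library per genotype, the spread came from the pairs of LPS libraries alone, and the controls of the 2 genotypes were not tested against each other.

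Histones package DNA into nucleosomes, with H2A, H2B, H3 and H4 forming the core and H1 binding the linker between cores. Most clustered histone genes are copied into mRNA in step with DNA replication, and that mRNA ends in a short stem-loop, bound by the protein Slbp, in place of a poly(A) tail. Some members, Hist1h1c (histone H1.2) among them, are also known to give longer mRNAs with a poly(A) tail that persist in cells that do not divide. Droplet libraries of this kind are usually primed on poly(A), so a UMI, 1 counted mRNA molecule, need not be captured equally well from every member. Levels of different members were therefore not compared with each other, and every level below is in CPM, the UMIs of a gene scaled to a common total of UMIs of the same cell class in the same library.

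The stem-loop is shown because it is what sets the replication-linked mRNAs apart, and because Hist1h1c carries it too. In GENCODE vM21 transcripts (GRCm38), 52 members had at least 30 annotated bases after the stop codon. The pattern was GG, any 3 bases, TT, any base, T, any base, A, any 3 bases and CC. Its first 6 bases also had to pair with its last 6, with G allowed to pair with T. Searched on the transcript strand in the first 150 bases after the stop, it occurred in 45 of the 52 members. Of 20753 coding genes, 49 (0.236%) had it. Hist1h1c lies on chromosome 13 from 23738808 to 23740367, plus strand; its stem-loop begins 25 bases after the stop and its annotated transcript runs 880 bases past the stop. AATAAA, the usual poly(A) signal, was found in the last 50 bases of 14 members, Hist1h1c and Hist3h2a among them, and of 62.0% of the coding genes. The stem-loops of 6 members described below follow, 5′ to 3′, with capitals marking the whole match.
Hist1h1c: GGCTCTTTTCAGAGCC
Hist1h1e: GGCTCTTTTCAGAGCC
Hist3h2a: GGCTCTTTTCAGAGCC
Hist1h3c: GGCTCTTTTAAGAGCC
Hist1h4d: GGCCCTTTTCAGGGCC
Hist1h4i: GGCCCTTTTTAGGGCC
No stem-loop pattern was found in the first 150 of the 742 annotated bases after the stop of Hist1h2bc, and no base after the stop is annotated for Hist1h1b. A missing pattern says only that no match with these letters and this pairing is in this window.

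The promoters of Hist1h1c and Hist1h1e are shown because these 2 linker histone genes differed most clearly between the genotypes. Each runs from 250 bases before to 50 after the start (RefSeq, GRCm38.p6), on its own strand, with the H1 box AAACACA and the CCAAT box in capitals; Hist1h1c is at chr13:23738557-23738856 on the plus strand and Hist1h1e at chr13:23622509-23622808 on the minus strand.
Hist1h1c: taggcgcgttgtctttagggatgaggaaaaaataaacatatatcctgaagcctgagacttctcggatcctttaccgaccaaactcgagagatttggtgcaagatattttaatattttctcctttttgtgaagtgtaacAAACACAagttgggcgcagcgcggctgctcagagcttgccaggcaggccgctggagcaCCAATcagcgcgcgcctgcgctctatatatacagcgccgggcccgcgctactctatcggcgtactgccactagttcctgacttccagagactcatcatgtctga
Hist1h1e: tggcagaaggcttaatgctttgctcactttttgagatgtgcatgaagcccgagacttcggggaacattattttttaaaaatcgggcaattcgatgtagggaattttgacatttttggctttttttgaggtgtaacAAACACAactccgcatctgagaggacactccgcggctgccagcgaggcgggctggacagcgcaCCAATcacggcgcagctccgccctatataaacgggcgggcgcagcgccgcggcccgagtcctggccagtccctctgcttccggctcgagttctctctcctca
Matched promoters numbered 62, for 61 members. Searched on both strands, the H1 box was in 5 of 6 H1 promoters, 2 of 17 H2A, 2 of 17 H2B, 0 of 10 H3 and 0 of 12 H4 promoters, against 7.18% of all 32851 promoters of the same length. CCAAT was in 6 of 6, 17 of 17, 17 of 17, 10 of 10 and 3 of 12 of them, against 37.4% of all promoters. The octamer ATTTGCAT, known from histone H2B promoters, was in 7 of 17 H2B and 7 of 17 H2A promoters and in none of the H1, H3 and H4 promoters, against 1.74% of all. These matches are descriptions of sequence.

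Of 64428 barcodes, 61736 passed the filters (at least 200 genes and at most 10% mitochondrial UMIs), and 50497 (81.8%) had a class. A cell was given a class when it had UMIs of at least 3 of 8 markers of that class and of at least 2 more than of any other of the 16 marker lists. Total UMIs per library ran from 55361477 to 115225284 and median UMIs per cell from 3260 to 7237.5. Each pair of libraries shared 20 to 35 barcodes. No doublet caller was run; the lead of 2 markers removes many cells with markers of several classes. Endothelial, stromal and epithelial cells made up 2.30 to 4.85% of the filtered cells per library in spite of the CD45 selection. Nos1 itself had 0 to 5 UMIs per library, too few to check the genotype labels. Sex-linked RNA set libraries apart: in B cells, Xist stood at 0.127 CPM and Y-linked genes at 197 CPM in WT control, whereas KO control and both WT LPS libraries had 715 to 1003 CPM of Xist and no Y-linked UMI. KO LPS replicates 1 and 2 had both kinds, with 630 and 727 CPM of Xist beside 24.8 and 31.9 CPM of Y-linked genes, so LPS and sex-linked RNA cannot be told apart within wild type.

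Members held 445858 UMIs over all filtered cells, 0.0904% of all UMIs there. The 6 H1 genes took 53.8% of them, the 18 H2A genes 17.8%, the 18 H2B genes 11.7%, the 12 H3 genes 6.16% and the 13 H4 genes 10.6%. Hist1h1e (20.4%), Hist1h1b (17.8%) and Hist1h1c (11.9%) held 50.1% between them, and the first 10 members 79.5%. At the other end, 11 members had under 100 UMIs and Hist1h2aa, whose known expression is in testis, had 0. Of the 67 members, 32 share at least 50% of their 50-base words with other genes, so reads of near-identical copies may have been lost or split.

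In B cells, LPS went with more histone mRNA in total, and in KO LPS far more than in WT LPS. The gate held 8153 B cells, with 2550 and 1932 in WT control and KO control, 665 and 718 in WT LPS replicates 1 and 2, and 1296 and 992 in KO LPS replicates 1 and 2; 1125 of them (13.8%) lay at the edge of the gate. Their 8 B cell markers summed to 6294 to 10730 CPM per library, against 3.48 to 325 CPM in the other 9 classes tested. All members together stood at 1489 CPM in WT control, 1432 in KO control, 2232 and 1663 in WT LPS and 3948 and 4991 in KO LPS. The controls were alike, both WT LPS libraries lay above them, and both KO LPS libraries lay above every other library. A CPM here is an average over cells: fewer cells with the mRNA and less mRNA per cell cannot be told apart in such sums.

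Hist1h1c did not follow this total. It stood at 373 CPM in WT control and 327 in KO control, fell to 178 and 156 in WT LPS, and was 420 and 491 in KO LPS. The WT LPS pair was the lowest and the KO LPS pair the highest, with the controls between them. Averaged over genotypes, LPS changed Hist1h1c by -0.14 log2 (SE 0.09, adjusted p = 0.157, edgeR), which hides opposite shifts of -0.91 log2 within wild type (adjusted p = 3.7e-05) and 0.62 log2 within NOS1-/- (adjusted p = 0.0014). With a stricter gate the averaged change was -0.64 log2 and passed the threshold (adjusted p = 7.0e-07). Its share of all member UMIs was 25.04 and 22.9% in the controls and 7.97 to 10.6% in the LPS libraries.

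The linker histone mRNAs gave the clearest values. Hist1h1e (histone H1.4) stood at 533 and 465 CPM in WT control and KO control, 456 and 389 in WT LPS, and 1119 and 1367 in KO LPS. It changed by 0.74 log2 with LPS over both genotypes (SE 0.10, adjusted p = 2.4e-05), and almost all of that came from the KO LPS libraries: -0.09 log2 within wild type (adjusted p = 0.60) against 1.56 within NOS1-/- (adjusted p = 2.3e-06). The Hist1h1e gene overlaps Hist1h2be on the same strand, so its count is uncertain to that extent.

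Hist1h1b (histone H1.5), one of the replication-linked linker histones, stood at 89.6 and 55.9 CPM in the controls, 503 and 348 in WT LPS, and 763 and 1471 in KO LPS. Every LPS library was above both controls, and the change was 3.48 log2 (SE 0.25, adjusted p = 8.1e-08). Hist1h1a (histone H1.1) went from 10.2 and 10.4 CPM to 51.5 and 34.2 in WT LPS and 99.4 and 170 in KO LPS, a change of 3.07 log2. Hist1h1d (histone H1.3) stood at 55.6, 47.8, 51.3, 39.1, 86.1 and 113 CPM in WT control, KO control, WT LPS replicates 1 and 2 and KO LPS replicates 1 and 2; only the KO LPS pair left the range of the others, and its 0.57 log2 was -0.04 within wild type.

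**Figure D1:**
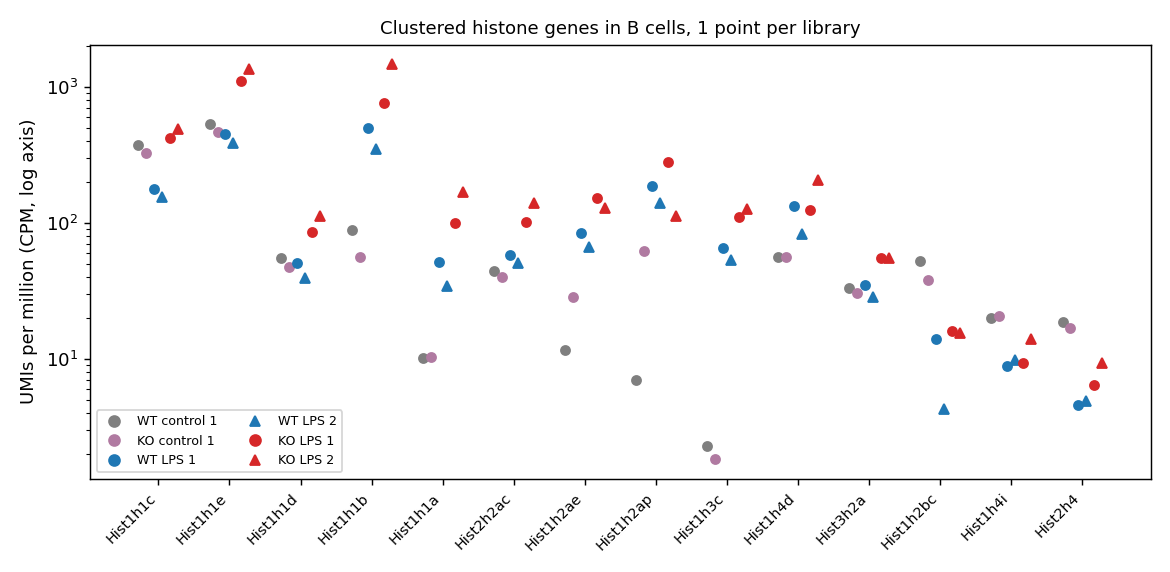
Levels of 14 members in B cells, in CPM on a log axis, with 1 point for each of the 6 libraries coloured by group. Hist1h1c and Hist1h1e are highest in the KO LPS libraries, Hist1h3c rises from near 2 CPM in the controls to 53.2 CPM or more with LPS, and Hist1h2bc, Hist1h4i and Hist2h4 are lower with LPS.

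Among the core histones, the largest rises were in H3 and H2A genes. Hist1h3c (H3) had 2.29 and 1.84 CPM in the controls, 65.6 and 53.2 in WT LPS and 110 and 127 in KO LPS, a change of 5.53 log2 (SE 0.18, adjusted p = 6.9e-11). Hist1h2ae (H2A) rose from 11.7 and 28.6 CPM to 84.9, 67.0, 153 and 129, a change of 2.70 log2. Hist2h2ac (H2A) rose from 44.6 and 40.1 CPM to 58.6 and 51.3 in WT LPS and 102 and 140 in KO LPS, by 1.14 log2. Hist1h4d (H4) rose from 55.8 and 56.3 CPM to 134, 83.5, 126 and 208, by 1.46 log2. In all 4 genes the LPS libraries lay above both controls, a separation that was not counted over all genes.

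A smaller set of core histone genes went the other way. Hist1h2bc (H2B), with 52.4 and 37.8 CPM in the controls, had 14.1 and 4.27 in WT LPS and 16.04 and 15.6 in KO LPS, a fall of -1.66 log2 (SE 0.23, adjusted p = 3.1e-05). Hist2h4 (H4) fell from 18.7 and 17.0 CPM to between 4.61 and 9.32, by -1.37 log2, and Hist3h2ba (H2B) from 22.7 and 16.6 CPM to between 2.96 and 10.6, by -1.49 log2. Hist1h4i fell by -0.79 log2, Hist1h3d by -0.76, Hist4h4 by -1.14, Hist2h2be by -1.91 and Hist2h3c1 by -1.33, the last 3 from under 6 CPM. In none of Hist1h2bc, Hist2h4 and Hist3h2ba did the LPS libraries overlap the controls. The share of all genes that separate in this way was not counted, and 65.3% of all genes tested were called with LPS.

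Of the 67 members, 49 passed the low-count filter in B cells (edgeR's filterByExpr), a filter that a member high in 1 group can pass through that group alone. With LPS, 32 of the 49 were higher and 8 lower at an adjusted p under 0.05, beside 65.3% of all 11588 genes tested in either direction, 32.5% higher and 32.8% lower. Their median change was 1.46 log2, beside -0.04 over all genes tested. The other rises, not yet named, ran from 0.59 log2 for Hist3h2a (33.27, 30.57, 34.99, 28.59, 54.96 and 54.9 CPM in the order above) and 0.80 for Hist1h2be to 5.14 for Hist1h2ab, 5.51 for Hist1h3b and 6.94 for Hist1h2af. Between them were the H2A genes Hist1h2ap (3.31), Hist1h2ak (2.65), Hist1h2an (2.49), Hist1h2ai (2.15), Hist1h2ad (1.47) and Hist2h2aa1 (1.43). The H2B genes were Hist1h2bp (4.12), Hist1h2bm (3.78), Hist1h2bb (2.72), Hist1h2bn (2.30), Hist1h2bj (2.28), Hist1h2br (2.28), Hist2h2bb (1.69) and Hist1h2bh (1.60), and the H3 and H4 genes were Hist1h3f (2.04), Hist1h3i (1.56), Hist1h3e (0.96), Hist1h4a (2.32) and Hist1h4h (1.57). Beside Hist1h1c, 8 members did not pass the threshold: Hist2h2ab (1.04), Hist1h4k (1.03), Hist1h3a (0.61), Hist2h3b (0.40), Hist1h2bf (0.35), Hist1h2ac (0.18), Hist1h4c (0.10) and Hist1h2bg (-0.51). A scaling to total UMIs alone moved the median of all genes in B cells by -0.19 log2 for this comparison, so a change is relative to the typical gene.

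Genes of DNA replication and mitosis rose beside them in the same B cells. All 12 of 12 S phase genes were higher with LPS, among them Pclaf (a PCNA-binding replication factor, 4.64 log2), Uhrf1 (3.74), Rrm2 (the small subunit of ribonucleotide reductase, 4.09) and Clspn (1.74). All 12 of 12 G2 and mitosis genes were higher, with Ube2c at 3.96 and Nusap1 at 4.43 log2, and so were all 12 of 12 licensing and nucleotide supply genes, with Ung at 2.54, Pcna at 1.25, Mcm6 at 1.60 and Mcm3 at 1.25. The 12 S phase genes summed to 30.8 and 38.5 CPM in the controls, 254 and 164 in WT LPS and 217 and 435 in KO LPS.

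Of the 12 listed chaperones, which escort histones to and from DNA, 9 were higher and 2 lower (Ubn1 and Atrx): Npm1 by 2.10, Daxx by 2.33, Asf1a by 1.26 and Nasp by 1.35 log2. Among 10 tested variant histones, most of which are made outside S phase with poly(A) tails, 8 were higher and 1, H3f3a, lower by -0.46: H2afx rose by 2.24, H2afz by 1.30, H3f3b by 0.81 and H2afy by 0.66. Of 11 tested genes of the machinery that makes and breaks down histone mRNA, 3 were higher, beside 32.5% of all genes: Slbp by 0.41, Cstf2 by 0.48 and Upf1 by 0.37.

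Cells with cycle genes were few. B cells with at least 4 S phase genes, or with at least 4 G2 and mitosis genes, numbered 13 and 7 in WT control and KO control, 36 and 23 in WT LPS and 43 and 54 in KO LPS. B cells with at most 1 of the 24 cycle genes were 98.1 and 97.3% of the class in the controls and 90.5 to 93.3% with LPS. In those cells alone, chosen for a comparison after the data were seen, 34 members passed the filter, 1 was higher with LPS and 18 were lower, beside 32.9 and 33.2% of all genes. The median was -0.94 log2 there. Of the 32 members that were higher over all B cells, 20 were tested in these cells: 1 (Hist3h2a) was higher, 5 were lower and 14 did not pass. All 8 members that were lower over all B cells were lower in these cells too.

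The member with the clearest contrast was Hist1h1b, which in cells with at most 1 cycle gene stood at 79.7 and 49.8 CPM in the controls, 12.9 and 13.03 in WT LPS and 50.6 and 64.8 in KO LPS, a change of -0.97 log2 in place of 3.48. Hist1h1c in those cells was 376 and 333 CPM in the controls, 97.6 and 94.7 in WT LPS and 334 and 398 in KO LPS, and its change was -0.67 log2 (adjusted p = 7.8e-07). Hist1h1e was 538, 475, 196, 221, 766 and 766 CPM in the same order. Hist3h2a, at 32.8, 31.0, 29.96, 26.4, 57.1 and 55.8 CPM, was 0.57 log2 higher, all of it in KO LPS. In these 4 genes the KO LPS libraries lay above the WT LPS libraries as they did over all B cells.

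**Figure D2:**
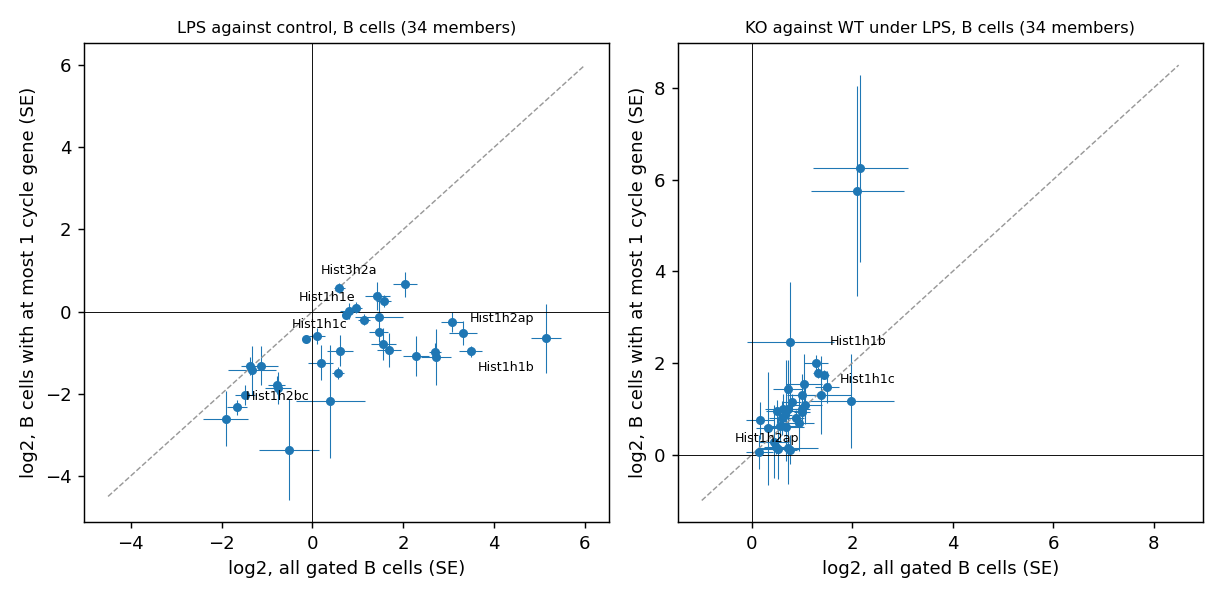
Log2 changes of 34 members in B cells, with standard errors, over all gated cells on the x axis and over cells with at most 1 cycle gene on the y axis, for LPS against control and for KO against WT under LPS; the dashed line marks equal values. With LPS, Hist1h1b moves from 3.48 to -0.97, whereas under KO against WT most members lie on or above the line.

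Under LPS, B cells of NOS1-/- lungs had more mRNA of every linker histone gene tested than B cells of wild-type lungs. Hist1h1c averaged 455 ± 50.4 CPM in KO LPS and 167 ± 15.4 in WT LPS (SD, n = 2 libraries each), 1.32 log2 apart (SE 0.11, adjusted p = 7.5e-06, edgeR across all genes). Hist1h1e differed by 1.43 log2 (SE 0.11, adjusted p = 6.8e-06), Hist1h1b by 1.27, Hist1h1a by 1.499 and Hist1h1d by 0.99. Among the core histones, Hist1h4a was higher by 1.66, Hist1h3b by 1.11, Hist3h2ba by 1.05, Hist2h2ac by 1.01, Hist2h2aa1 by 1.00, Hist1h3i by 0.93, Hist1h3e by 0.87, Hist1h3c by 0.86, Hist1h4h by 0.79, Hist1h2ae by 0.76, Hist1h4c by 0.73 and Hist3h2a by 0.66. In all, 17 of 49 members were higher and 0 lower, beside 26.8% of all genes called, 12.3% higher and 14.6% lower; the median member changed by 0.76 log2 and the median gene by 0.04. The fitted difference was above 0 in 48 of the 49 members and -0.02 in the remaining one, Hist2h2ab. The share of all genes above 0 was not counted. Members were measured in the same cells and many share sequence, so the 48 are not separate observations. The count of 17 was 9 with DESeq2 and 28 without WT LPS replicate 1, and the share of all genes called was not counted for either.

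Few genes of the S phase and mitosis lists passed the same test. Of the 12 S phase genes 0 passed with edgeR (1 at an unadjusted p under 0.05, and 0 with DESeq2), with a median of 0.52 log2 and 11 of 12 above 0; of the 12 G2 and mitosis genes 1 did (Mki67, 0.67); and of the 12 licensing genes 1 was higher (Rrm1, 0.53) and 1 lower (Ung, -0.81). The histone chaperones Npm1 (-0.95), Nasp (-0.70) and Nap1l1 (-0.54) were lower in KO LPS, while Atrx (0.30) and Daxx (0.28) were higher. Lsm10 (-0.59) and Lsm11 (-0.79), subunits of the U7 particle that cuts histone pre-mRNA, were lower, and 2 variant histones, H1f0 (1.00) and H2afv (0.62), were higher. A p that misses the threshold does not show that S phase genes were alike in both genotypes.

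In B cells with at most 1 cycle gene, 14 of 34 members were higher in KO LPS and 0 lower, beside 14.3 and 17.5% of all genes. Hist1h1c differed by 1.79 log2 there, Hist1h1e by 1.74, Hist1h1b by 2.00 and Hist1h1d by 0.92. Of the 17 members higher over all B cells, 11 were higher in these cells. In cells with an Xist UMI and no Y-linked UMI, a comparison added after the data were seen, which leaves out WT control, 22 of 46 members were higher in KO LPS and 0 lower, beside 10 and 12.4% of all genes, and all 17 members above were among the 22. Hist1h1c differed by 1.37 log2 there, with 196 and 166 CPM in WT LPS and 469 and 540 in KO LPS. The few B cells with Y-linked UMIs and no Xist in KO LPS, 74 and 63 cells, had 317 and 479 CPM of Hist1h1c, beside 351 CPM in 989 such cells of WT control.

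Markers of other classes, and the B cell markers themselves, differed between the groups in the gated B cells, and their part in these differences was not tested. The 8 B cell markers summed to 10730 and 10700 CPM in WT control and KO control, 6294 and 6417 in WT LPS and 9330 and 8875 in KO LPS, so the WT LPS pair was the lowest, as for Hist1h1c. Of these, Cd79a, a part of the B cell receptor, stood at 3305 and 3291, 1214 and 1269, and 2208 and 2107 CPM. The 8 T cell markers summed to 161 and 191 CPM in the controls, 17.6 and 16.4 in WT LPS and 69.6 and 54.9 in KO LPS, and the 8 plasma cell markers to 157 and 191, 222 and 200, and 211 and 246 CPM. The 8 classical monocyte markers, which include genes that B cells also express, summed to 758 and 972 CPM in the controls, 1830 and 1919 in WT LPS and 2180 and 2119 in KO LPS. The plasmacytoid dendritic cell list stood at 288 and 315, 1097 and 1072, and 1190 and 1096 CPM, with 1 to 3 of its markers at 0. The interstitial macrophage list stood at 437 and 420, 66.4 and 131, and 203 and 231 CPM, and the platelet list at 8.29 and 8.83, 3.53 and 4.6002, and 33.8 and 50.2 CPM. The median B cell had 1936.5 and 2702.5 UMIs in the controls, 4351 and 3132.5 in WT LPS and 2972.5 and 2259 in KO LPS.

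The response to LPS differed between the genotypes in 6 members in B cells, 5 in the direction of more mRNA in NOS1-/- and 1 of less, beside 10.3% of all genes called, 4.21 and 6.09% in those directions. That count ran from 10 to 16 when 1 LPS library was left out, and was 10 with the stricter gate. The share of all genes called was not counted under those settings. In cells with at most 1 cycle gene, the members in those 2 directions were 11 and 1 of 34, beside 14.6% of all genes called. The differences of the 2 responses were 1.53 log2 for Hist1h1c (SE 0.17, adjusted p = 0.00051), 1.65 for Hist1h1e (adjusted p = 0.00053), 1.97 for Hist1h1b (adjusted p = 0.015), 1.23 for Hist1h1d (adjusted p = 0.012) and 1.18 for Hist2h2ac (adjusted p = 0.014). Each rests on 1 control library per genotype. The control levels of Hist1h1c, 373 CPM (exact 95% Poisson interval 359 to 387, counting error only) and 327 CPM (315 to 340) in WT control and KO control, were close beside these differences, as were those of Hist1h1e, 533 CPM (517 to 550) and 465 CPM (450 to 481). The sixth, Hist1h2ap, went the other way (-2.96 log2, adjusted p = 0.0086).

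Hist1h2ap relative to Hist1h1b set 2 libraries apart. In B cells this H2A gene stood at 7.01 CPM in WT control, 61.9 in KO control, 187 and 140 in WT LPS, and 280 and 113 in KO LPS. The ratio of its UMIs to those of Hist1h1b was low in WT control and KO LPS replicate 2 in all 5 classes examined: 0.0782 and 0.0769 in B cells, 0.117 and 0.0914 in T cells, 0.0434 and 0.163 in NK cells, 0.0554 and 0.0948 in alveolar macrophages and 0.0302 and 0.0849 in classical monocytes. In the other 4 libraries the ratio lay between 0.220 and 1.11. Of the 50-base words in Hist1h2ap, 93.1% occur in other genes. These 2 libraries are of different genotype and treatment. The ratio of Hist1h2ae to Hist1h1b UMIs was also lowest in them in B cells (0.131 and 0.0875, against 0.169 to 0.512 in the other 4 libraries), alveolar macrophages (0.0554 and 0.0766, against 0.172 to 0.286) and classical monocytes (0.0705 and 0.111, against 0.164 to 0.244), but not in T cells and NK cells. Over all filtered cells, several other members had their fewest UMIs in these 2 libraries. Among them were Hist1h3b, Hist2h2aa1, Hist1h4h, Hist1h3f, Hist1h2ab, Hist1h2bb and Hist1h2br. These UMIs are not scaled to depth. WT control and KO LPS replicate 2 also had the fewest UMIs of all genes, 55361477 and 60105386, against 66383205 to 115225284 in the others. In WT control and KO LPS replicate 2, Hist1h3b had 49 and 148 UMIs, against 229 to 755 in the others. Hist1h1b had 6748 and 16122, against 9396 to 20301. Hist1h1a did not follow, with 330 and 1316 UMIs against 649 to 1380. The share of members, or of all genes, with their fewest UMIs in these 2 libraries was not counted. The part of this in the LPS and genotype values of Hist1h2ae, Hist1h3b, Hist2h2aa1, Hist1h4h, Hist1h3f, Hist1h2ab, Hist1h2bb, Hist1h2br and other members was not tested.

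**Figure D3:**
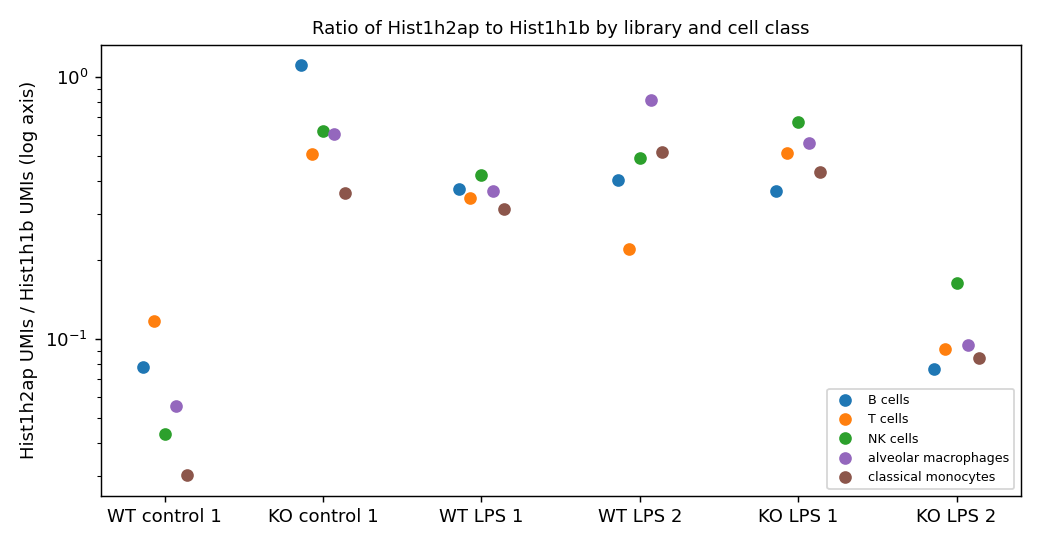
Ratio of Hist1h2ap UMIs to Hist1h1b UMIs on a log axis, with 1 point per library and cell class. WT control 1 and KO LPS 2 lie at or below 0.163 in every class shown, and the other 4 libraries at or above 0.220.

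Members were also compared between cells with and without cycle genes. Cells with at least 4 of 12 S phase genes were set against cells of the same class and library with at most 1 of the 24 cycle genes, and no histone gene was used to choose them. Alveolar macrophages had enough such cells in all 6 libraries (10 to 58 per library) and classical monocytes in the 4 LPS libraries (24 to 41). Cycling cells are deeper, with for example 10981.5 against 6855.5 UMIs (medians) in WT control alveolar macrophages, counting cells with S phase or mitosis genes. CPM scales each sum to its total, but a gate on detected genes takes deeper cells more easily, and no doublet caller was run. A count with cells matched on depth is given below for classical monocytes. A member passes the low-count filter through whichever cells hold it, so one seen in S-phase-gene cells alone can be tested and had to differ.

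In alveolar macrophages, Hist1h1b stood between 561 and 1333 CPM in S-phase-gene cells and between 0.695 and 2.92 CPM in cells without cycle genes, 8.51 log2 apart (SE 0.19, adjusted p = 9.9e-27). Hist1h3c differed by 9.65 log2, Hist1h2ap by 6.91, Hist1h2ae by 5.29, Hist1h1d by 5.07, Hist1h1e by 3.43 and Hist1h4d by 3.15. For Hist1h1c, the S-phase-gene cells had 63.9, 74.4, 125, 155, 134 and 102 CPM in the order WT control, KO control, WT LPS 1 and 2, KO LPS 1 and 2, and the cells without cycle genes 62.1, 57.1, 20.6, 22.3, 47.2 and 38.6 CPM. That is a difference of 1.17 log2 (SE 0.20, adjusted p = 4.1e-05), small in the controls and larger with LPS. Hist1h3b had 54 UMIs in the S-phase-gene cells, 30 of them in KO LPS 1 and 0 in WT LPS 2, and 0 in the others.

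Hist1h2bc was the reverse of the replication-linked genes: 63.9, 31.9, 20.2, 0, 36.4 and 25.5 CPM in S-phase-gene alveolar macrophages against 229, 182, 119, 108, 99.7 and 101 CPM in cells without cycle genes, -2.20 log2 (SE 0.16, adjusted p = 5.7e-13). Its level was lower in the S-phase-gene cells in every library. Hist3h2a was lower by -1.60 log2 (adjusted p = 0.0082), and Hist1h4i (0.82, adjusted p = 0.18), Hist1h2be (0.60, adjusted p = 0.40) and Hist2h3c1 (-1.42, adjusted p = 0.096) did not pass. In all, 24 members were tested, 19 were higher and 2 lower, beside 12.8 and 14.2% of all genes, with a median of 3.85 log2.

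In classical monocytes of the LPS libraries, 42 of 43 tested members were higher in S-phase-gene cells and 1, Hist3h2a (-0.84 log2, adjusted p = 0.0057), lower, beside 33.3 and 34% of all genes. The median was 5.17 log2. Hist1h1c had 334, 210, 163 and 369 CPM in the S-phase-gene cells of WT LPS 1 and 2 and KO LPS 1 and 2, against 21.8, 25.2, 40.6 and 43.3 CPM in cells without cycle genes, 2.75 log2 apart (SE 0.22, adjusted p = 3.3e-07). Hist1h3c differed by 10.38, Hist1h2ae by 7.06, Hist1h2ap by 6.76, Hist1h1b by 5.85, Hist2h2ac by 4.03, Hist1h1e by 3.41 and Hist1h4d by 2.85 log2. Hist1h2bc was 2.46 log2 higher here, the opposite of its direction in alveolar macrophages; the difference between the classes was not tested. With cells matched on depth, 22 members were called higher in place of 42. The share of all genes called was not counted for the matched cells.

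B cells had too few S phase cells alone, so those with S phase or mitosis genes were pooled in the 5 libraries with at least 10 of them, a comparison added after the data were seen. Hist1h1c stood at 313 CPM in such cells of WT control, 947 and 919 in WT LPS and 1374 and 1013 in KO LPS, against 376, 97.6, 94.7, 334 and 398 CPM in cells without cycle genes, 1.91 log2 apart (SE 0.45, adjusted p = 0.0084). WT control had few cycling cells, with 43 UMIs of Hist1h1c, and its level was no higher in them. This was not particular to Hist1h1c. Hist1h1a (7.28 against 10.6 CPM, 1 UMI in the cycling cells) and Hist2h2ac (36.4 against 45.7, 5 UMIs) were not higher there either. Hist1h1b (677 against 79.7 CPM) and Hist1h3c (102 against 0.403) were higher in the cycling cells of WT control. Over the 5 libraries, Hist1h1b differed by 7.02 log2, Hist1h1e by 2.57 and Hist1h2bc by 2.10. Of 33 members tested, 31 were higher and 0 lower, beside 14.4 and 13.4% of all genes; Hist3h2a (0.41) and Hist2h4 (-0.33) did not pass. Hist1h3b had 247 UMIs in the cycling B cells, 139 of them in KO LPS 1, and 0 in the others.

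The genes that make, process and carry histones differed between the same cells. Among S-phase-gene alveolar macrophages 6 of 11 tested histone mRNA machinery genes were higher and 0 lower, with Slbp, the stem-loop binder, at 2.24 log2, Casp8ap2 at 1.72, Eri1 at 1.64 and Npat, the activator of histone gene transcription, at 1.84. Of 12 chaperones 8 were higher, with Asf1b at 5.90, Chaf1a at 4.53, Chaf1b at 4.18 and Nasp at 2.48. Of 9 tested variant histones 6 were higher and 2 lower, beside 12.8 and 14.2% of all genes, with H2afv at 2.21 and H2afz at 1.33 log2.

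Across cell classes, Hist1h1c was high in B cells and low in alveolar macrophages and non-blood cells. Over the 6 libraries, and relative to the same library, B cells had more Hist1h1c than T cells by 0.67 log2 (SD 0.25), than classical monocytes by 1.06 (SD 0.80), than alveolar macrophages by 2.19 (SD 0.36), than interstitial macrophages by 2.78 (SD 1.80), than endothelial cells by 3.01 (SD 1.22) and than stromal cells by 4.03 (SD 1.79), on the log2(CPM + 1) scale. In each of these 6 the B cells were higher in 6 of 6 libraries, and each exact paired permutation test gave p = 0.03125, the smallest that 6 libraries allow, or 0.047 adjusted over the 9 classes. Nonclassical monocytes (2.00, SD 1.58) and neutrophils (2.26, SD 1.62) were lower in 5 of 6 libraries (exact p = 0.0625, adjusted 0.070), and NK cells (0.86, SD 0.92) in 5 of 6 (exact p = 0.094). The 4 LPS libraries alone cannot go below an exact p of 0.125, so no class passes there.

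T cells had 239 and 229 CPM of Hist1h1c in the controls, 113 and 125 in WT LPS and 215 and 256 in KO LPS. The WT LPS pair was the lowest and the KO LPS pair lay on either side of the controls. NK cells had 444 and 326 CPM in the controls and 93.0 to 127 with LPS, and classical monocytes 317 and 251 CPM against 85.5 to 110; in both, LPS libraries lay below the controls with the genotypes close together. Alveolar macrophages had 84.5 and 73.6 CPM in the controls, 39.7 and 50.1 in WT LPS and 76.6 and 75.6 in KO LPS. Neutrophils had 469 CPM in WT control, 190 in KO control, 18.7 and 17.4 in WT LPS and 44.5 and 39.4 in KO LPS.

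**Figure D4:**
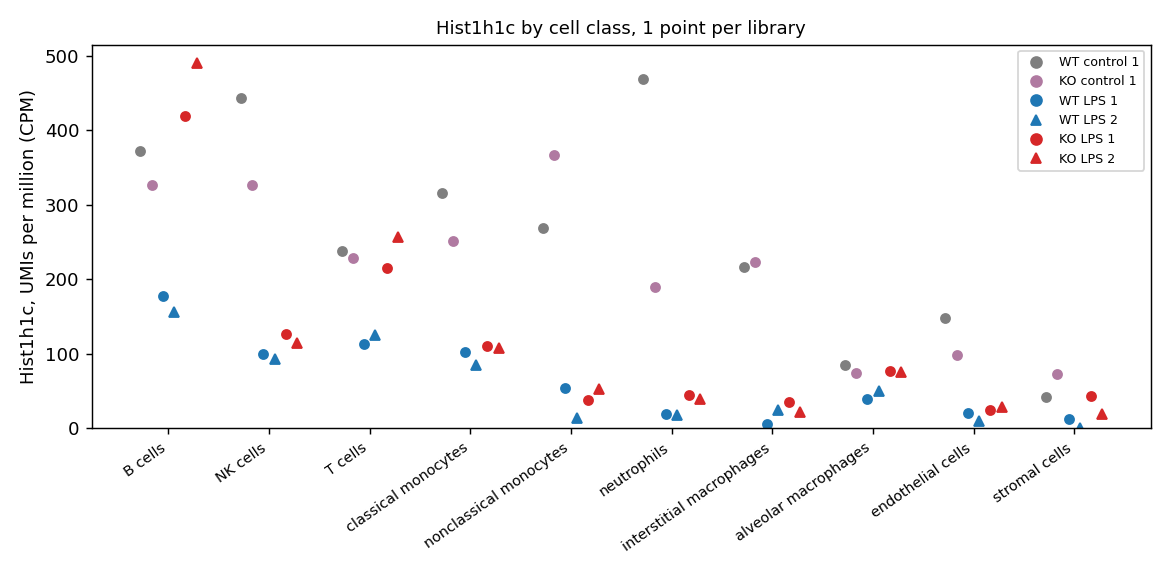
Hist1h1c in CPM in 10 cell classes, with 1 point for each of the 6 libraries coloured by group, on a linear axis from 0. In most classes the 4 LPS libraries lie below the controls; the KO LPS points lie above both controls in B cells, on either side of them in T cells and between them in alveolar macrophages.

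With LPS, Hist1h1c fell by -1.52 log2 in NK cells (SE 0.11, adjusted p = 6.2e-07), -1.18 in classical monocytes, -2.73 in nonclassical monocytes, -3.16 in interstitial macrophages, -2.33 in neutrophils, -1.95 in endothelial cells and -0.30 in alveolar macrophages. It did not pass in T cells (-0.25, adjusted p = 0.065) or stromal cells (-1.57, adjusted p = 0.071). In alveolar macrophages the direction turned to 0.16 log2 without WT control. Scaling to total UMIs alone moved the median gene of neutrophils by -1.10 log2 and that of endothelial cells by -0.62, so the sizes there depend on the scaling. In neutrophils the median change over all genes tested was 0.47 log2, so values there are not centred on the typical gene.

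The replication-linked members split the classes further. In classical monocytes 32 of 58 tested members were higher with LPS and 5 lower (59.2% of all genes called). Hist1h3c was at 5.63 log2 (4.09 to 7.16 when 1 library was left out), Hist1h2ab at 7.82 (4.66 to 11.17) and Hist1h1b at 2.08. Some tested members had 0 UMIs in both controls, among them Hist1h2af (347 UMIs with LPS) and Hist1h2ag (96). Such members passed the low-count filter through the LPS libraries alone, so they could not come out lower. In monocytes with at most 1 cycle gene, 0 of 31 members were higher and 16 lower (59.6%), and Hist1h1b changed by -1.46. S-phase-gene monocytes numbered 0 in both controls and 24 to 41 in the LPS libraries. These are counts and not shares of the class. The class held 1657935 and 2108323 UMIs in WT control and KO control, against 7964374 to 17420869 in the LPS libraries. T cells had 19 of 37 higher and 3 lower (40.8% of all genes called), and 1 of 21 higher and 6 lower (37.6%) in those with at most 1 cycle gene. KO control stood apart here, with 42 T cells holding S phase or mitosis genes against 12 in WT control and 6 to 17 in the LPS libraries. Hist1h1b in T cells was 32.6 CPM in WT control, 324 in KO control, 183 and 223 in WT LPS and 307 and 265 in KO LPS. The higher and lower counts were, for NK cells, 0 and 5 of 29 (39.6%), for alveolar macrophages 9 and 5 of 47 (55.2%; 0 and 8 of 25 with at most 1 cycle gene, 54.5%) and for interstitial macrophages 0 and 9 of 12 (33.8%). They were 0 and 10 of 15 (43.4%) in nonclassical monocytes, 3 and 6 of 35 (47.6%) in neutrophils, 2 and 10 of 19 (62.6%) in endothelial cells and 0 and 2 of 7 (27.8%) in stromal cells.

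Hist1h2bc was lower with LPS in T cells (-1.30 log2), alveolar macrophages (-0.77), neutrophils (-3.09), endothelial cells (-1.99) and stromal cells (-1.71) as in B cells. In neutrophils it went from 707 CPM in WT control and 392 in KO control to 19.4 and 24.3 in WT LPS and 36.5 and 39.5 in KO LPS, and Hist1h4i from 145 and 59.0 CPM to between 6.73 and 9.74. In interstitial macrophages Hist1h1b went from 281 and 400 CPM to 1.91 and 17.9 in WT LPS and 0 in both KO LPS libraries, with only 39 to 58 such cells per library. Most of the control level lay in cells with more cycle genes. In those with at most 1 cycle gene, Hist1h1b stood at 52.7 CPM in WT control and 3.60 in KO control. There it was 1.97 and 5.00 CPM in WT LPS and 0 in both KO LPS libraries.

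Between genotypes under LPS, Hist1h1c was higher in NOS1-/- in 3 classes outside B cells and Hist1h1e in 4, of which neutrophils and alveolar macrophages kept both calls in cells with an Xist UMI and no Y-linked UMI. Hist1h1e differed by 1.41 log2 in neutrophils, 1.54 in endothelial cells, 0.91 in alveolar macrophages and 0.53 in T cells, and Hist1h1c by 0.92 in neutrophils, 0.90 in T cells and 0.68 in alveolar macrophages. For Hist1h1c, classical monocytes (0.08, adjusted p = 0.52), NK cells (0.29, adjusted p = 0.40) and endothelial cells (0.58, adjusted p = 0.11) did not pass. The members higher and lower were 2 and 0 of 37 in T cells (5.41%, beside 3.5% of all genes called). They were 8 and 1 of 47 in alveolar macrophages (19.1%, beside 31.3%) and 9 and 0 of 35 in neutrophils (25.7%, beside 26.8%). They were 2 and 0 of 19 in endothelial cells (10.5%, beside 19%) and 0 and 4 of 58 in classical monocytes (6.90%, beside 28.5%). Outside T cells, each of these member shares lay below that of all genes. By edgeR and by DESeq2 alike, 0 members passed in NK cells (1.21%), interstitial macrophages (0%), nonclassical monocytes (2.02%) and stromal cells (1.22%), where 0 of 29, 1 of 12, 4 of 15 and 4 of 7 had an unadjusted edgeR p under 0.05. The 4 lower members of classical monocytes, none of which DESeq2 called, were Hist1h4i (-0.77), Hist1h2ac (-1.15), Hist1h2af (-0.91) and Hist1h2ag (-1.39). In those cells, 12 of 44 members were higher and 1 lower in alveolar macrophages (13.8% of all genes called) and 11 of 32 higher and 0 lower in neutrophils (6.73%); there Hist1h1c differed by 0.74 and 1.20 log2 and Hist1h1e by 1.16 and 1.77. In the same kind of cells edgeR called 0 of 32 members in T cells (0.122%), 0 of 16 in endothelial cells (5.28%) and 0 of 46 in classical monocytes (7.54%), with 3, 2 and 9 at an unadjusted p under 0.05. In T cells Hist1h1c was then 0.82 log2 (adjusted p = 0.091) and Hist1h1e 0.40 (adjusted p = 0.63), and in endothelial cells Hist1h1e was 0.70 (adjusted p = 0.12), Hist1h1c -0.02 and Hist1h1b -1.76. In alveolar macrophages Hist1h1b (0.87) and Hist1h1d (0.78) were higher beside Hist1h1e. B cell markers summed to 27.8 and 94.2 CPM in T cells of WT LPS and 72.3 and 40.4 in KO LPS, to 33.0 and 26.8 against 44.1 and 52.9 in alveolar macrophages and to 34.98 and 45.7 against 96.7 and 80.7 in neutrophils; their part in the differences was not tested.

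The LPS response also differed between genotypes outside B cells, again against 1 control library each. The members higher and lower in this difference were 2 and 6 of 37 in T cells (21.6%, beside 1.52% of all genes called). They were 4 and 0 of 47 in alveolar macrophages (8.51%, beside 10.5%) and 4 and 0 of 35 in neutrophils (11.4%, beside 4.51%). The members were 1 and 0 of 58 in classical monocytes (1.72%, beside 4.71%) and 2 and 2 of 19 in endothelial cells (21.1%, beside 5.1%). Hist1h1c was among them in T cells (1.05 log2), alveolar macrophages (0.92), neutrophils (2.07) and endothelial cells (1.23), and Hist1h1e in alveolar macrophages (1.17), neutrophils (2.13), endothelial cells (2.25) and classical monocytes (0.71). In neutrophils the Hist1h1c value rests on controls at 469 and 190 CPM, which were farther apart than the LPS groups.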

How the data were processed

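Single-cell RNA-seq of 6 mouse lung libraries was used as deposited: raw UMI counts per gene and cell. The authors' tools, per the submitters' processing notes, were Cell Ranger 6.1.0, Seurat 4.1.0 and R 4.1.3, with build mm10; the 10x chemistry is not stated there. Cells were classed from 16 marker lists, and UMIs were summed per library and class, with at least 30 cells a library. Sums were tested with edgeR 4.0.16 (quasi-likelihood, TMM, filterByExpr, Benjamini-Hochberg over all genes tested, adjusted p under 0.05) in R 4.3.3, with 4 group means and 2 residual degrees of freedom; every adjusted p without the word exact is from such a fit. S-phase-gene cells were compared with cells without cycle genes with library as a block. On simulated counts for the genotype contrast in B cells (11286 genes), 44.8% of 2-fold and 89.7% of 4-fold changes were recovered and 3% of calls were false. DESeq2 1.42.0, other gates, filters and scalings, and leaving out libraries were tried. LPS replicate numbers did not pair the libraries (correlations of deviations -0.10 to 0.15 over classes), so no block was used. The members and gene lists were chosen with earlier results of these data known. Named genes are Hist1h1c throughout; every tested member in B cells; in other classes up to 4 members with the smallest p per comparison; for S phase, up to 8 passing members by UMIs and every tested member not passing, with a few others named after their values were seen. UMIs are molecules counted once, and intervals cover counting error only.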

Additional observations from a re-analysis of the deposited data

Results flagged for a closer look

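The LPS response of the following members differed between the genotypes by a test of the difference itself (edgeR interaction, NOS1-/- minus wild type, log2), each against a single control library per genotype. Of the members tested, 12.2% were called in B cells (10.3% of all genes), 8.51% in alveolar macrophages (10.5%) and 1.72% in classical monocytes (4.71%). The shares were 21.6% in T cells (1.52%), 11.4% in neutrophils (4.51%) and 21.1% in endothelial cells (5.1%). In B cells the differences were 1.53 for Hist1h1c, 1.65 for Hist1h1e, 1.23 for Hist1h1d, 1.18 for Hist2h2ac, 1.97 for Hist1h1b and -2.96 for Hist1h2ap. In alveolar macrophages they were 1.17 for Hist1h1e, 1.57 for Hist1h1b, 1.03 for Hist1h1d and 0.92 for Hist1h1c, and in classical monocytes 0.71 for Hist1h1e. In neutrophils they were 2.07 for Hist1h1c, 1.20 for Hist1h2bc, 2.13 for Hist1h1e and 1.36 for Hist1h4i. These rest on single controls that lay far apart, with WT control above KO control in each. Hist1h1c stood at 469 and 190 CPM in WT control and KO control, Hist1h2bc at 707 and 392 and Hist1h1e at 135 and 74.0. The 2 control levels of Hist1h4i are given above. In endothelial cells the differences were 2.25 for Hist1h1e, 1.23 for Hist1h1c, -4.15 for Hist1h1b and -4.74 for Hist1h2ae. The last 2 rest on 1 UMI of each gene in WT control (0.586 CPM, exact 95% Poisson interval 0.0148 to 3.27), beside 38.6 CPM of Hist1h1b and 15.1 CPM of Hist1h2ae in KO control.

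T cells gave both signs: 1.05 for Hist1h1c and 2.06 for Hist1h2bc, but -2.80 for Hist1h1b, -3.86 for Hist1h3c, -4.24 for Hist1h2ab, -3.09 for Hist1h2ae, -4.59 for Hist1h2ap and -7.33 for Hist1h2bb. WT control had 0 UMIs of Hist1h2bb in T cells, so that fitted value is no bound. The negative ones are replication-linked members, and the KO control library held 42 of 1648 T cells with S phase or mitosis genes beside 12 of 1457 in WT control. The Hist1h1b difference was 0.53 in T cells with at most 1 cycle gene.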

How the results depend on the processing

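Over 140 named values and 2102 alternatives, 1877 kept their direction and side of the threshold, 153 lost a call, 37 gained one and 35 turned direction; the cause was not tested except where fewer cells or libraries were used. Outside cells with at most 1 cycle gene and cells with Xist only, the share of all genes called was not counted under an alternative. A changed count of members there may go with a changed share of all genes. In B cells, restricting to cells with at most 1 cycle gene gave 1 higher and 18 lower members with LPS (32 and 8 over all cells) and 12 interactions (6 over all cells), and turned Hist1h1e to -0.093, Hist1h1b to -0.97, Hist1h1d to -1.502, Hist1h1a to -0.25, Hist2h2ac to -0.19, Hist1h2ap to -0.52 and Hist1h2ae to -0.97. It also turned Hist1h1b in T cells (LPS -0.71, interaction 0.53) and classical monocytes (-1.46) and the genotype difference of Hist1h2ac in classical monocytes (0.63). DESeq2 gave 3 lower with LPS and 9 higher in KO LPS. With no low-count filter, 26 were higher in KO LPS, 12 interactions were called and 36 members were higher in S-phase-gene alveolar macrophages. Without the deepest cells 8 were higher in KO LPS. A stricter gate gave 10 interactions and turned Hist1h1d with LPS to -0.26 and the genotype difference of Hist1h1c to -0.068 in classical and -0.28 in nonclassical monocytes, and a looser gate turned Hist1h1c with LPS in B cells to 0.039. G2 and mitosis genes in place of S phase genes gave 39 higher members in alveolar macrophages, and matching on depth gave 22 in classical monocytes and -0.31 for Hist1h4i in alveolar macrophages. Within KO alone 3 members were lower with LPS in B cells, and LPS values were 0.62 for Hist1h1c in B cells, 0.27 in T cells, 0.16 in alveolar macrophages and 0.35 for Hist1h1e in stromal cells; within WT alone Hist1h1e was -0.086 and Hist1h1d -0.041 in B cells. Cells with Xist only gave genotype differences of -0.082 and -1.64 for Hist1h1c in classical and nonclassical monocytes, and -1.76 for Hist1h1b and -0.020 for Hist1h1c in endothelial cells. In the 4 LPS libraries alone 0 classes passed below B cells. Leaving out a library each in turn gave, in B cells, 25 to 32 higher and 3 to 8 lower with LPS, 15 to 28 higher in KO LPS and 10 to 16 interactions, and in S-phase-gene cells 19 to 23 higher and 1 to 2 lower in alveolar macrophages and 42 to 47 higher in monocytes. The lowest LPS count was without WT control (3 lower), the highest genotype count without WT LPS replicate 1 (28), and the lower count of 1 without KO control. With LPS, values that turned direction ranged over these fits from -0.91 to 0.61 for Hist1h1c, -0.084 to 1.56 for Hist1h1e and -0.040 to 1.18 for Hist1h1d in B cells, from -0.80 to 0.26 for Hist1h1c in T cells, from -0.75 to 0.16 in alveolar macrophages and from -3.75 to 0.33 for Hist1h1e in stromal cells, negative without KO control and positive without WT control. The genotype difference of Hist1h1c ranged from -0.045 to 0.23 in classical and from -0.35 to 1.52 in nonclassical monocytes. With the replicate block, in the 4 LPS libraries, 14 members were higher in KO LPS against 17 without it; the numbers do not pair the libraries.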
